A study of Ursus arctos with 12 samples.

Results

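Collagen VI and the fibril-associated collagens were followed here in the thigh muscle of brown bears through 9 genes, taken by symbol from the 30249 genes of the count table: COL6A1, COL6A2, COL6A3 and COL6A6 for collagen VI, COL12A1, COL14A1, COL16A1 and COL21A1 for the fibril-associated collagens, and COL8A1 for the network-forming collagen VIII. All 9 were found in the table, and 9 of 9 passed the filter of 30 reads summed over the libraries. Vastus lateralis, a muscle of the thigh, was biopsied in 6 free-ranging brown bears (Ursus arctos), 2 to 3 years old. Each bear was sampled once in hibernation (winter) and once when active (summer). By the paper's methods the winter capture came first, in February, and the summer recapture in June of the same year. A fall here is thus a lower level in winter than in the later summer sample, not a decline followed in time. The animals were wild, with no treatment named beyond capture, anesthesia and sampling. Winter thus differs from summer in inactivity, fasting, torpor, the order of sampling and the time of year together. The 12 libraries of stranded mRNA held 16742406 to 32140160 reads counted on genes. The winter library of bear 1509 stood apart on the second principal component of all genes, at −98.6 where the other winter libraries lay at 6.35 to 23.1. On the first component the winter libraries of bears 1509 and 1511 lay at 30.2 and 25.5, where the other winter libraries lay at 59.0 to 74.4. These libraries also had the fewest reads, 16742406 for bear 1509 and 17198625 for bear 1511. For COL8A1, COL12A1, COL14A1 and COL16A1 the log2 fold change without bear 1509 is given as well. Muscle fibre genes were abundant in both seasons, which fits the tissue label: CKM, the muscle creatine kinase, was at 47260 to 83340 CPM (read counts scaled to library size, with TMM factors) in summer and 49096 to 80213 in winter.

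Collagen VI forms beaded microfilaments that run next to the basement membrane of muscle fibres and link it to the interstitial matrix. Its main form is assembled from the products of COL6A1, COL6A2 and COL6A3, made largely by interstitial fibroblasts, and inherited defects in these genes cause the Ullrich and Bethlem muscular dystrophies. Fibril-associated collagens (FACIT) do not build fibrils themselves but sit on the surface of collagen I fibrils, where they bind proteoglycans and tenascins. Collagen VIII is a short-chain collagen of vessel walls and other subendothelial matrix.

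All 9 genes were lower in winter by edgeR's quasi-likelihood test with the bear as a block (adjusted p below 0.05), and 9 of 9 also passed the stricter limits that the study used for differentially expressed genes, with the adjusted p under 0.01 and the fold change of winter over summer under 0.77. Over all 17290 genes tested, 21.2% were lower by the first rule and 13.4% by the second. Of the 9 genes 0 were higher, against 19.6% of all genes by the first rule and 12.2% by the second. The fall was seen in 6 of 6 bears for each of the 9 genes, as it was for 19% of all genes. Log2 fold changes lay between −3.38 for COL8A1 and −0.91 for COL21A1 with a median of −2.28, beside a median of −0.01 over all genes, and 1.63% of all genes had a value this low. COL8A1, COL14A1 and COL6A2, 3 of the 9, lay at −2.5 or below, as did 1.15% of all genes. For 6 of the 9 genes every winter library lay below every summer library, which held for 8.21% of all genes, and the reverse held for 0 of the 9 and 9.12% of all genes. Below, log2FC is the log2 fold change of winter over summer with its standard error after the ± sign, and the adjusted p is that of the edgeR test. In the biopsies, fewer cells that make these collagens and less collagen mRNA per cell cannot be told apart.

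**Figure D1:**
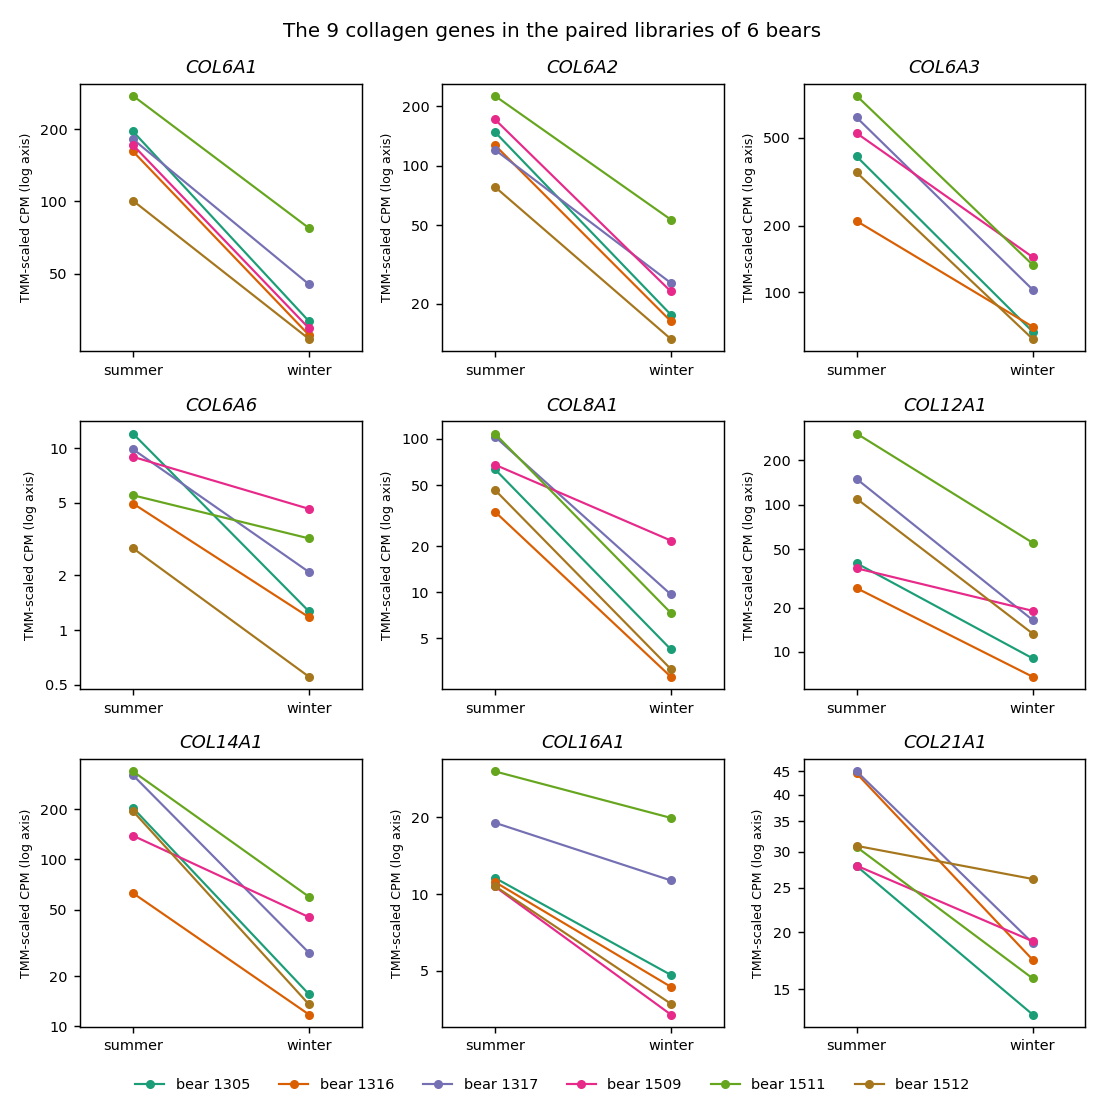
Level of each of the 9 genes in every library, as TMM-scaled CPM on a log axis, with summer on the left, winter on the right and a line joining the libraries of a bear. Each of the 54 lines runs downward, and the winter point of bear 1509 is the highest of its season for COL6A3, COL6A6 and COL8A1.

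The chains of the main collagen VI molecule fell 4.73-fold to 6.20-fold. COL6A1, which encodes the alpha-1 chain, ranged from 101 to 275 CPM in summer (median 176) and from 26.7 to 77.3 CPM in winter (median 30.6). The seasons did not overlap, and bear 1511 was the highest and bear 1512 the lowest in both. Winter lay below summer with a log2FC of −2.24 ± 0.14 (adjusted p = 6.11e-06), with single bears between −2.62 and −1.83. For COL6A2, the alpha-2 chain, summer libraries lay at 78.3 to 226 CPM (median 138) and winter libraries at 13.3 to 53.4 CPM (median 20.4). This was the deepest fall of the main chains, with −2.63 ± 0.15 on the log2 scale (adjusted p = 5.47e-06) with single bears from −3.07 to −2.08.

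COL6A3 encodes the large alpha-3 chain, whose C-terminal end is cleaved off as endotrophin. It had the most reads of the 9 genes, 4404 to 19354 per library in summer and 1629 to 2617 in winter, which was 210 to 772 CPM (median 468) against 61.6 to 144 CPM (median 86.5). Bears 1509 and 1511 were the highest in winter, at 144 and 133 CPM, but still below the lowest summer library, that of bear 1316. COL6A3 thus had a log2FC of −2.28 ± 0.16 (adjusted p = 1.1e-05), from −2.63 to −1.58 in single bears.

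COL6A6, an alternative chain related to alpha-3, was far more thinly counted, with 72 to 330 reads per library in summer and 17 to 84 in winter. It was at 2.82 to 12.02 CPM in summer (median 7.23) and at 0.554 to 4.64 CPM in winter (median 1.67). Here the seasons overlapped, since the winter libraries of bears 1509 and 1511 lay above the summer library of bear 1512. The log2FC of −1.90 ± 0.31 (adjusted p = 0.000812) spanned −3.16 to −0.77 over the bears, the widest spread among the 4 collagen VI genes of the set.

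COL6A5, the other alternative chain and not among the 9 genes, changed in the opposite direction but was close to absent. In summer it had 1, 0, 1, 2, 1 and 0 reads in bears 1305, 1316, 1317, 1509, 1511 and 1512, and in winter 10, 20, 4, 6, 1 and 1. The log2FC was 2.84 ± 0.69 (adjusted p = 0.00752), higher in 6 of 6 bears, though bears 1511 and 1512 differed by at most 1 read between seasons. Without bear 1316 the gene fell under the filter and was not tested. COL6A5 and COL6A6 are neighbours in the RefSeq table of the UrsArc2.0 assembly, as are COL6A1 and COL6A2.

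Between the main chains, the balance of reads was compared within each library, where scaling cancels. For every 100 reads on COL6A1 there were 66.4 to 100.2 on COL6A2 in summer (median 78.3) and 49.8 to 78.2 in winter (median 57.7), lower in 6 of 6 bears. The seasonal change of COL6A2 was thus 0.39 ± 0.15 log2 units more negative than that of COL6A1 (SD, n = 6 bears), by −0.64 to −0.23 in single bears. The two-sided exact sign-flip permutation test gave p = 0.03125, the smallest that 6 bears allow, and 0.05 after Benjamini-Hochberg adjustment over the 8 pairs of chains tested, which is at the threshold and not below it. COL6A3 and COL6A1 differed by −0.04 ± 0.71 log2 units in their change (SD, n = 6 bears, exact permutation p = 0.906, adjusted 0.906), with single bears on both sides from −0.70 to 0.95. COL6A6 fell less than COL6A3 in 4 of 6 bears, a difference of 0.41 ± 0.86 (SD, n = 6 bears, exact permutation p = 0.375, adjusted 0.429) that lay within the spread between bears.

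**Figure D2:**
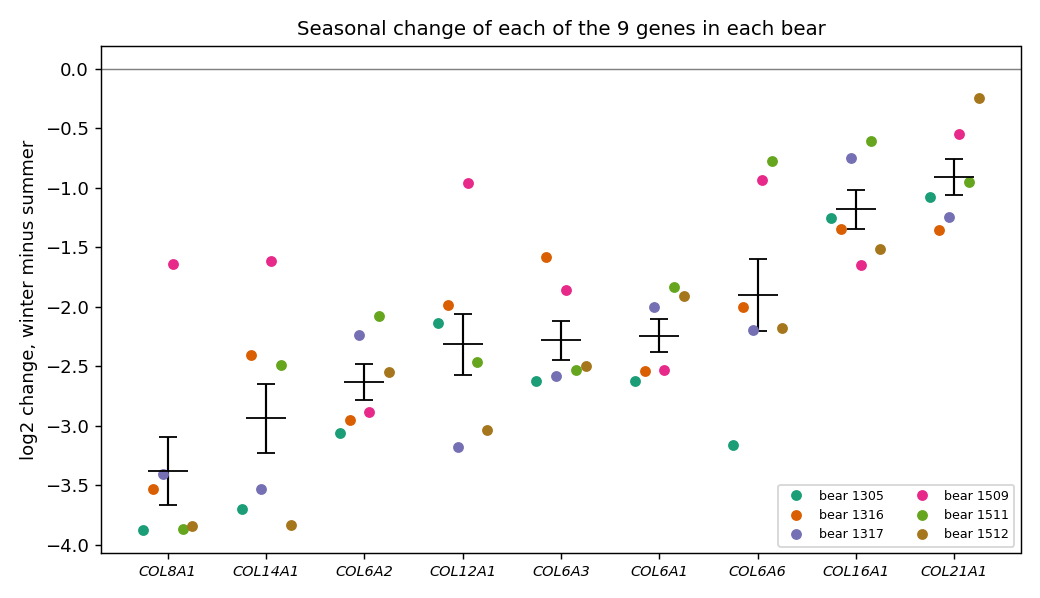
Log2 difference, winter minus summer, of the 9 genes, ordered by size. Coloured points are single bears, and a black bar is the edgeR estimate with its standard error. The estimates run from −3.38 for COL8A1 to −0.91 for COL21A1, and bear 1509 has the smallest fall for COL8A1, COL14A1 and COL12A1 but the largest for COL16A1.

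COL8A1 had the deepest fall of the 9 genes. It was at 33.6 to 108 CPM in summer (median 65.7) and at 2.81 to 21.7 CPM in winter (median 5.79), without overlap. Winter libraries other than that of bear 1509, at 21.7 CPM, lay at 9.69 CPM or lower. The log2FC was −3.38 ± 0.29 (adjusted p = 2.39e-05), a 10.4-fold fall, and −3.72 without bear 1509. In bear 1509 alone the log2 change was −1.64, while the other bears lay from −3.88 to −3.41.

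Among the fibril-associated collagens, COL14A1, whose protein binds decorin on the fibril surface, fell most. Its summer libraries lay at 62.7 to 336 CPM (median 199) and its winter libraries at 11.8 to 59.6 CPM (median 21.5), and no winter library reached the lowest summer value, that of bear 1316. The log2FC was −2.94 ± 0.29 (adjusted p = 5.18e-05), from −3.84 to −1.62 in single bears, or 7.67-fold, and −3.19 without bear 1509. Bears 1509, 1316 and 1511 showed the smaller falls, at −1.62, −2.41 and −2.49.

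COL12A1, the long FACIT chain of tendon, ligament and muscle connective tissue, varied most of the 9 genes between bears in summer. It reached 305 CPM in bear 1511, 150 in bear 1317 and 110 in bear 1512, but only 40.0, 37.0 and 27.1 in bears 1305, 1509 and 1316, an 11.2-fold range. In winter it was at 55.1 CPM in bear 1511 and between 6.76 and 19.0 in the others. The winter library of bear 1511 therefore overlapped the summer range, yet within each bear winter was lower, with log2 changes from −3.18 to −0.96. The log2FC was −2.32 ± 0.26 (adjusted p = 9.91e-05), and −2.57 without bear 1509. Tendon cell markers were high in the same libraries. Their summed level was 907 to 1153 CPM in the summer libraries of bears 1317, 1511 and 1512 against 218 to 367 in the other summer libraries. In winter it was 776 CPM in bear 1511 against 40.3 to 237 in the rest. Among that rest the order differed: bear 1509 had 19.0 CPM of COL12A1 and a tendon sum of 89.9, and bear 1317 had 16.4 and 237. THBS4, which is also a muscle gene, made up 143 to 614 CPM of the sum in summer. EGR1, a listed marker that was not called (adjusted p = 0.561), made up 17.0 to 164 CPM of the sum in summer. In winter EGR1 made up 21.1 to 212 CPM, and the order of the winter sums was not read without it. The part of tendon tissue in the COL12A1 values was not tested.

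Smaller falls were measured for the remaining FACIT genes. COL16A1, which is expressed by fibroblasts and smooth muscle, was at 10.7 to 30.3 CPM in summer (median 11.4) and 3.37 to 19.9 CPM in winter (median 4.57). The seasons overlapped through bears 1511 and 1317, which were the highest in both, at 30.3 and 19.1 CPM in summer and 19.9 and 11.3 CPM in winter. Its log2FC of −1.18 ± 0.16 (adjusted p = 0.000314) rested on the pairing of the libraries: without the bear as a block, edgeR gave −0.99 and an adjusted p of 0.089, and DESeq2 −0.97 and 0.052. Without bear 1509 the log2FC of COL16A1 was −1.08. COL21A1, a FACIT of vessel walls, was the most even between bears, at 27.9 to 45.0 CPM in summer (median 30.8) and 13.2 to 26.1 CPM in winter (median 18.2). The seasons did not overlap, although bear 1512 differed by only −0.24, at 30.9 CPM in summer and 26.1 CPM in winter. The log2FC was −0.91 ± 0.15 (adjusted p = 0.00103).

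COL12A1 fell less than COL14A1 in 6 of 6 bears, by 0.64 ± 0.53 log2 units (SD, n = 6 bears, exact permutation p = 0.03125, adjusted 0.05). In reads, COL12A1 stood at 19.7 to 90.7 per 100 reads of COL14A1 in summer and 42.2 to 98.3 in winter. COL21A1 also fell less than COL14A1 in 6 of 6 bears, by 2.03 ± 1.00 (SD, n = 6 bears, exact permutation p = 0.03125, adjusted 0.05), and COL16A1 in 5 of 6, by 1.75 ± 1.05 (SD, n = 6 bears, exact permutation p = 0.0625, adjusted 0.0833). In the order of the 9 genes by size of fall (COL8A1, COL14A1, COL6A2, COL12A1, COL6A3, COL6A1, COL6A6, COL16A1, COL21A1), neighbours differed by less than the SD of their difference between bears in each of the 8 steps, and in 3 to 5 of 6 bears the higher placed gene fell more.

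Of the 38 collagen genes tested, 27 were lower in winter, the 9 among them, and 1, COL6A5, was higher. Over all genes tested, 21.2% were lower and 19.6% higher. By the median log2FC, the 9 genes at −2.28 lay below the basement membrane chains at −2.16, the fibrillar chains at −1.87 and the other chains of their own classes at −1.43, while the comparators named next fell more than most of the 9. COL1A1, the main chain of fibrillar collagen I, had a log2FC of −5.17 ± 0.46 (adjusted p = 3.46e-05), COL1A2 one of −4.13 (adjusted p = 2.35e-05) and COL3A1 one of −5.08 (adjusted p = 7.47e-05), or −4.17 for COL3A1 without the bear as a block. COL4A1, the ubiquitous basement membrane chain, stood at −3.01 ± 0.15 (adjusted p = 5.47e-06). COL6A1 fell less than COL1A1 in 6 of 6 bears, by 2.90 ± 1.297 log2 units (SD, n = 6 bears, exact permutation p = 0.03125, adjusted 0.05), and less than COL4A1 in 6 of 6, by 0.77 ± 0.65 (SD, n = 6 bears, exact permutation p = 0.03125, adjusted 0.05). In single bears these differences ran from 0.53 to 4.10 for COL1A1 and from 0.01 to 1.68 for COL4A1.

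**Figure D3:**
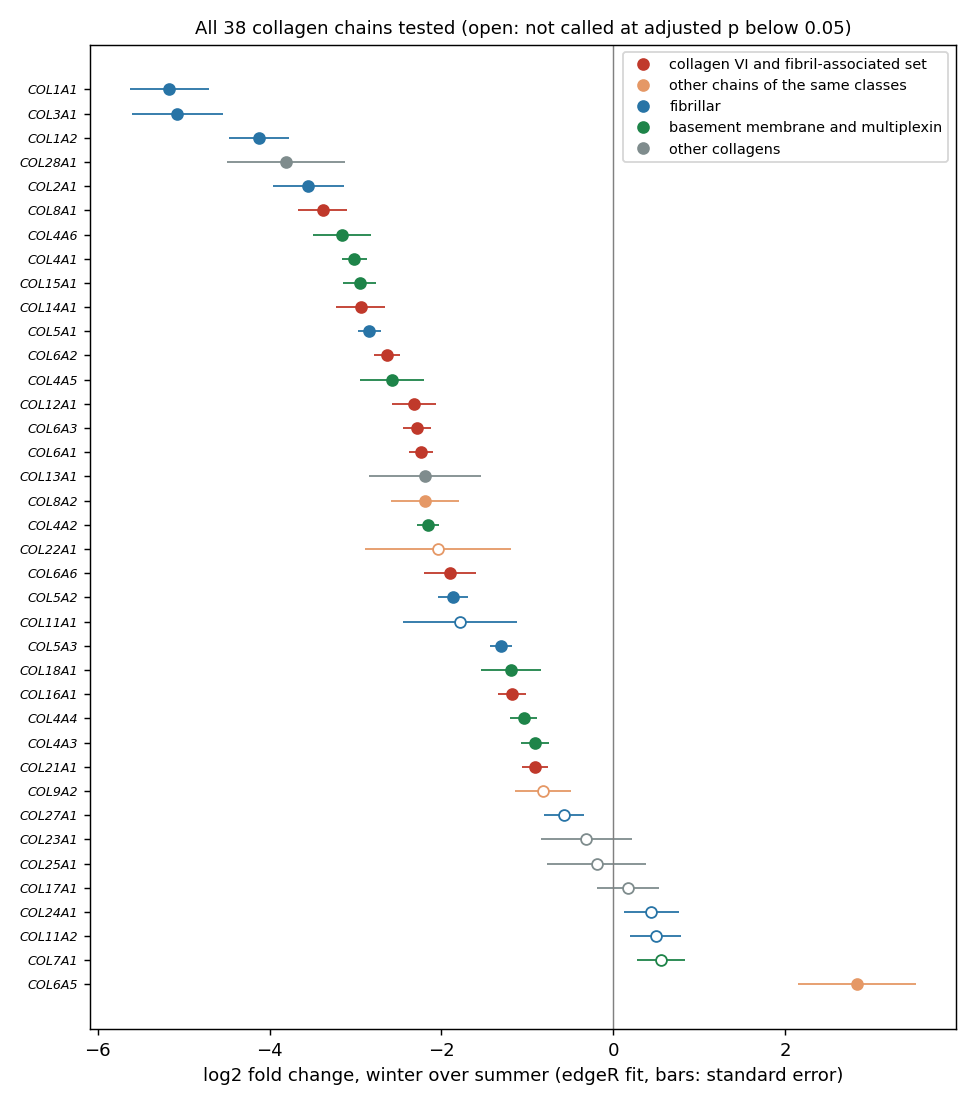
Log2 fold change of winter over summer for the 38 collagen genes tested, with the standard error as a bar, coloured by class and open where the adjusted p was not below 0.05. The 9 genes of the set, in red, lie between −3.38 and −0.91, to the right of COL1A1 at −5.17 and COL3A1 at −5.08 and to the left of COL6A5 at 2.84.

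The 9 genes held 0.0635 to 0.216% of all reads in summer and 0.0148 to 0.0411% in winter, while all 38 collagen genes together held 0.526 to 1.51% and 0.0482 to 0.203%. Within the collagen reads the share of the 9 genes was larger in winter in 6 of 6 bears, 16.5 to 32.1% (median 28.6) against 10.2 to 16.6% in summer (median 13.1). The seasons met only through the winter library of bear 1509, at 16.5%, since the other winter libraries lay at 27.1% or more. COL6A1, COL6A2 and COL6A3 alone went from 6.91 to 9.60% of collagen reads in summer to 10.5 to 22.1% in winter, and the 4 FACIT genes went from 2.37 to 6.23% to 4.604 to 10.5%. Basement membrane and multiplexin chains also held more of the collagen reads in winter in 5 of 6 bears, 12.6 to 34.5% (median 28.7) against 10.1 to 20.6% (median 15.6). Fibrillar collagens held less in 6 of 6, 34.1 to 63.6% in winter against 65.97 to 79.6% in summer. These are shares of reads, in which long transcripts weigh more than short ones, and they say nothing of the ratio of chains.

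**Figure D4:**
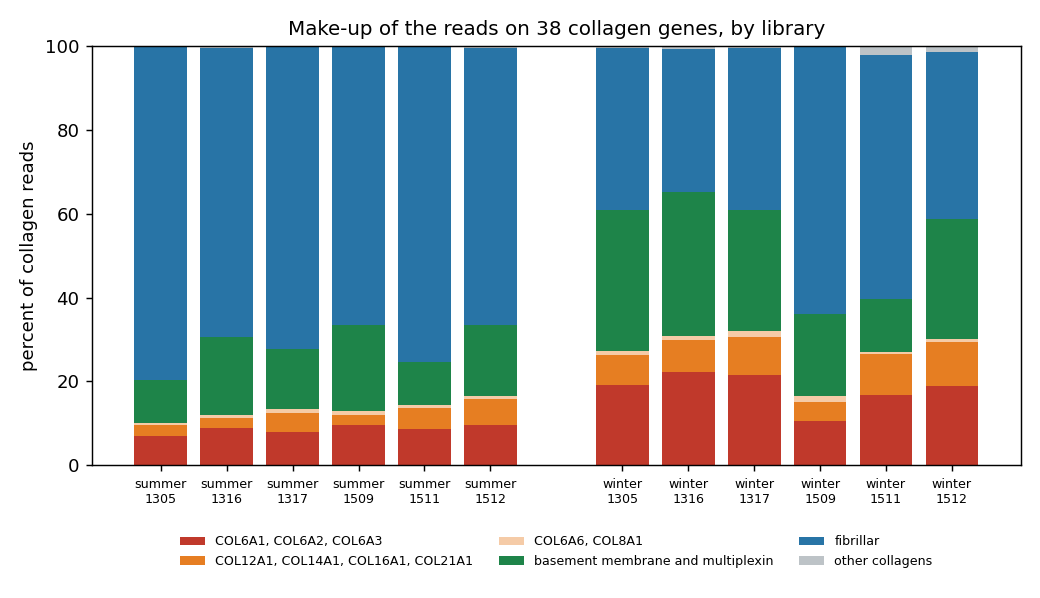
Make-up of the reads on the 38 collagen genes in each library, in percent, with the summer libraries on the left and the winter libraries on the right, each marked by its bear. The red segment of COL6A1, COL6A2 and COL6A3 is taller in winter in 6 of 6 bears, and bear 1509 keeps the largest blue, fibrillar segment of the winter libraries at 63.6%.

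The genes that act with these collagens were read from lists by role. The background for the counts of each list is 21.2% of all genes lower and 19.6% higher. In the other chains of the same classes, 4 of 9 listed genes had reads enough to be tested: COL8A2, the partner chain of COL8A1, was lower (log2FC −2.19 ± 0.39, adjusted p = 0.00147), COL6A5 was higher, and COL22A1 (−2.04, adjusted p = 0.0787) and COL9A2 (−0.82, adjusted p = 0.0659) passed no threshold. COL22A1, a FACIT of the myotendinous junction, ranged from 0.291 to 26.7 CPM in summer and from 0.294 to 25.3 CPM in winter. The call of COL8A2 was lost without the bear as a block (adjusted p = 0.166).

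Fibrillar chains were lower in 7 of 11 (median −1.87), and COL11A1, COL11A2, COL24A1 and COL27A1 were not called. Basement membrane and multiplexin chains were lower in 8 of 9 (median −2.16), with COL4A6 at −3.16 ± 0.33 (adjusted p = 7.94e-05) as the deepest fall and COL7A1 not called. Genes named here and below for passing no threshold were picked for it after their values were seen.

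Receptors for collagen fell less deeply, with 8 of 12 lower, 1 higher and a median of −0.57. ITGA11, the integrin subunit of fibroblasts that binds collagen I, had a log2FC of −2.95 ± 0.36 (adjusted p = 0.00017), and ANTXR1, a receptor that binds collagen VI, one of −1.999 ± 0.27 (adjusted p = 0.000313). DDR1, a collagen-activated receptor kinase, was higher in 5 of 6 bears at 0.49 ± 0.15 (adjusted p = 0.0229), a call that was lost without bear 1305 (adjusted p = 0.0877), 1316 (0.0508), 1511 (0.0631) or 1512 (0.0632) and with library totals (0.0564). ITGA10, LAIR1 and ADGRG1 were not called.

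Matrix partners of the fibril surface and of collagen VI, such as small proteoglycans, matrilins and tenascins, were lower in 16 of 17 with a median of −2.09, and MATN4 was not called. TNC, a tenascin of loaded and remodelling tissue, fell furthest at −3.60 ± 0.40 (adjusted p = 9.6e-05), or −2.96 without the bear as a block. THBS4, a thrombospondin of tendon and muscle, stood at −3.47 ± 0.64 (adjusted p = 0.00177), and at −1.92 without the block, where the adjusted p was 0.119. That fit called 10 of the 17 partners lower.

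In collagen biosynthesis 15 of 23 genes were lower and 1 was higher, with a median of −0.93. ADAMTS2, the protease that removes the N-propeptide of fibrillar procollagens, had a log2FC of −4.22 ± 0.45 (adjusted p = 8.38e-05), and P4HA3, a prolyl hydroxylase subunit at 0 to 21.0 CPM, one of −3.96 ± 0.71 (adjusted p = 0.00151), lower in 5 of 6 bears. P4HB, protein disulfide isomerase, which serves many secreted proteins besides collagen, was higher at 0.47 ± 0.12 (adjusted p = 0.00873). Of the genes of collagen turnover, 8 of 13 were lower and 2 higher (median −0.99). MRC2, the endocytic receptor for collagen fragments, stood at −2.69 ± 0.20 (adjusted p = 1.37e-05) and MMP16, a membrane-bound metalloproteinase, at −2.13 ± 0.43 (adjusted p = 0.00292). TIMP4, a metalloproteinase inhibitor of heart and muscle, rose by 0.88 ± 0.23 (adjusted p = 0.00994) in 5 of 6 bears, and MMP11 by 0.60 ± 0.18 (adjusted p = 0.0236) in 5 of 6. The call of MMP11 was lost on leaving out bear 1305 (adjusted p = 0.0885), 1317 (0.0645) or 1511 (0.0737), and CTSK, MMP9 and TIMP3 were not called.

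**Figure D5:**
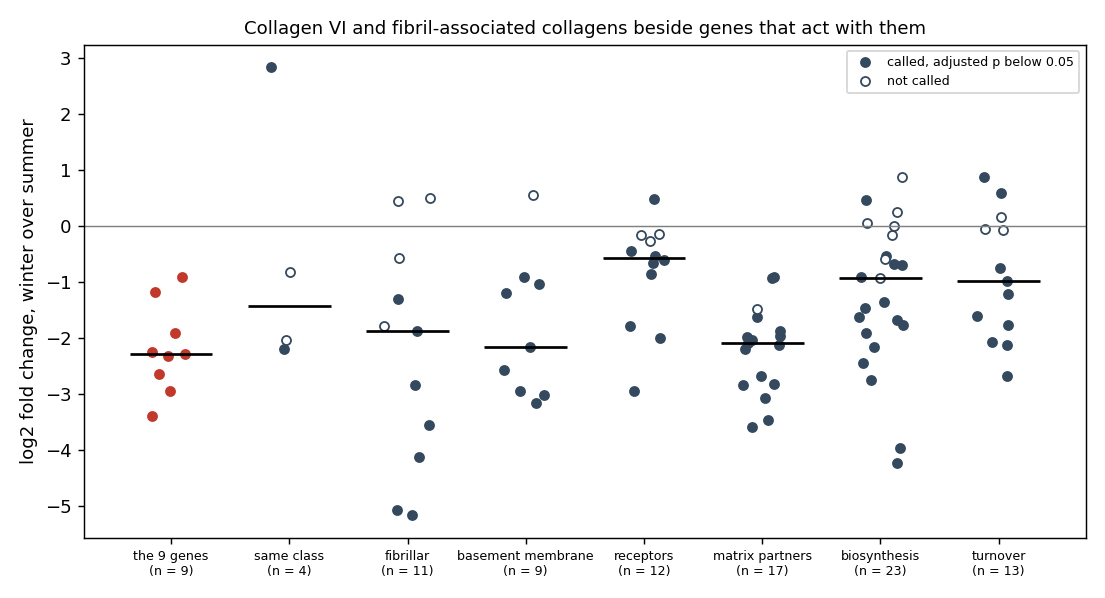
Log2 fold change of winter over summer for the 9 genes (red) and for the 7 lists of genes that act with them, with a point per gene, open where not called, and a bar at the median of the list. The medians of the basement membrane chains (−2.16) and the matrix partners (−2.09) lie near that of the 9 genes (−2.28), and that of the receptors (−0.57) lies highest.

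The genes outside the collagen family whose change over the bears was most like that of collagen VI were sought by the root-mean-square difference, over the 6 bears, from the mean log2 change of COL6A1, COL6A2 and COL6A3, among 7532 genes that had a name other than LOC and digits and an average log2 CPM of 3 or more. The nearest 5 were GPT at 0.363 log2 units, OLFML2B at 0.366, BMP1 at 0.372, HMCN2 at 0.386 and VASH1 at 0.386. GPT is alanine aminotransferase, OLFML2B an olfactomedin-like secreted protein, BMP1 the protease that removes the C-propeptide of procollagens, HMCN2 a hemicentin of the matrix and VASH1 the tubulin carboxypeptidase vasohibin-1. Their log2 fold changes lay between −2.44 for BMP1 and −2.11 for GPT. This ranking was unstable, since 0 of the 5 stayed among the nearest without bear 1509 and 2 of 5 without bear 1305 or bear 1317.

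Markers of the cells that the biopsies could hold were read beside the 9 genes, with 21.2% of all genes lower and 19.6% higher as the background for their counts. Of the 11 tested fibroblast and fibroadipogenic markers 6 were lower and 0 higher, and their summed level was 609 to 875 CPM in summer and 248 to 645 CPM in winter, lower in 6 of 6 bears. PI16, DPP4, CD34, CD248, THY1 and VIM were called, TCF7L2, OSR1, GFPT2 and LSP1 were not, and PDGFRA, the defining marker, was at 26.7 to 57.6 CPM in summer and 22.5 to 42.6 in winter and was not called either (adjusted p = 0.0778). Of 7 tendon cell markers 5 were lower, with sums of 218 to 1153 CPM and 40.3 to 776 CPM, and the tendon factor SCX was at 0 to 2.04 CPM. SCX and EGR1 were not called. Endothelial markers were lower in 6 of 7, with sums of 604 to 928 CPM in summer against 386 to 450 CPM in winter. CLDN5 was the 1 endothelial marker called higher, at 4.78 to 12.6 CPM in summer and 7.06 to 20.7 CPM in winter. Those of smooth muscle and pericytes were lower in 4 of 8, with sums of 641 to 827 CPM against 426 to 550 CPM. Macrophage markers were lower in 5 of 7 (89.9 to 138 CPM against 39.7 to 77.2 CPM) and adipocyte markers in 1 of 6 (298 to 1379 CPM against 218 to 463 CPM). The adipocyte marker called was FABP4, at 263 to 889 CPM in summer and 186 to 284 CPM in winter. ADIPOQ, PLIN1, LEP, CIDEC and CFD were not called, and the median log2FC of the adipocyte list was 0.04. Satellite cell markers were lower in 4 of 5 but summed to only 7.07 to 14.03 CPM and 1.66 to 4.79 CPM. Schwann cell markers were lower in 3 of 6 (19.8 to 45.9 CPM against 8.08 to 126 CPM, the last in the winter library of bear 1509). The 2 red blood cell markers tested were not called (3.17 to 65.6 CPM against 34.4 to 56.8 CPM). Of 8 muscle fibre markers 2 were lower, MB (log2FC −1.02) and ACTA1 (−0.91), and 1 was higher, TTN (0.65). Muscle fibre sums were 114151 to 199822 CPM in summer and 126122 to 161675 CPM in winter. The part of these cells in the changes of the 9 genes was not tested.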

How the data were processed

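Muscle mRNA of 6 brown bears was sequenced in winter and in summer. The authors prepared stranded libraries, sequenced single reads, aligned them to ASM358476v1 with TopHat2 2.1.1 and counted reads per gene on the opposite strand with featureCounts 1.6.2. The deposited values are these counts, neither normalized nor filtered. Sequencing lanes are not assigned in the labels, so a lane effect was not tested.

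Genes under 30 reads over the 12 libraries (0.019% of reads) were left out, as by the authors. The remaining 17290 were scaled by TMM and tested in R 4.3.3 with edgeR 4.0.16 (glmQLFit, glmQLFTest), with season and bear as terms and Benjamini-Hochberg adjustment over all of them. The standard error is the log2 fold change divided by the square root of F. Levels are TMM-scaled CPM, and per-bear changes use log2 CPM with a prior count of 2. Pairs of chains were compared by an exact sign-flip test over bears.

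The pairing comes from the animals: both libraries of a number are from the same bear, by the labels and the paper's methods. Taken as deviations from the mean of their season, libraries correlated at 0.0903 to 0.344 within a bear and at a median of −0.0634 (at most 0.142) between bears. No library was a copy of another of its season (lowest chi-square per gene 30.2).

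Alternatives were no replicate block, DESeq2 1.42.0 with and without it, limma 3.58.1 voom, RLE, library totals, no filter, filterByExpr, other prior counts, the stricter limits, and each bear left out. Fits were tested on simulated data. The members, lists and rules were chosen with earlier results of these data known. Named genes were the 9 members, 4 comparator collagens, the 2 deepest falls and 2 largest rises called in each list, and the 5 genes nearest to collagen VI. RefSeq's UrsArc2.0 table matched 9 of 9 symbols and was used for neighbours only. Sequences, coordinates and transcript lengths were not used here. Where reads or CPM of different genes stand side by side, they are therefore no measure of relative transcript amounts.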

Additional observations from a re-analysis of the deposited data

Results flagged for a closer look

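In 66 groups of 6 libraries (a named gene in a season), 1 library lay outside its group by Dixon's test at the 95% level, where chance flags about 1 in 20 groups. It belonged to COL4A6, a basement membrane chain and not to the 9 genes: the summer library of bear 1317 had 1.95 log2 CPM, and the rest of that season ranged from 0.63 to 1.11. The low summer expression of this gene, 1.46 to 3.78 CPM, limits what the value shows.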

How the results depend on the processing

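The 9 genes were lower in each of the 15 alternative settings, and 133 of 135 values stayed called. Among these settings the stricter limits reuse the main fit with other thresholds and are not a separate fit. The exceptions were COL16A1 without the replicate block in edgeR (adjusted p = 0.089) and in DESeq2 (0.052), so those fits called 8 of 9. Without any bear, and without bears 1509 and 1511 together (chosen after the data were seen), 9 of 9 were called. Scaled by library totals, the median log2 fold change was −2.36 for the 9 genes and −0.08 for all genes. No filter, RLE and filterByExpr changed no call of the 9 genes.

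With the stricter limits of the study, 2325 genes were lower and 2115 higher in place of 3663 and 3392, and 3 rather than 5 genes of the 7 lists were higher. Leaving out each bear gave 3001 to 3677 lower and 2619 to 3542 higher genes, 3 to 7 higher and 60 to 64 lower genes of the lists (63 in the main fit, 55 without the replicate block), and 0 to 5 of the 5 genes nearest to collagen VI. Of the 8 pairs of chains, 0 had an adjusted p below 0.05 with a prior count of 2 or 0.5, where 5 stood at 0.05, and 6 with a prior count of 5 (0.0417). Without any bear 0 of 8 passed, since 5 bears allow no p below 0.0625. COL6A5, at 0 to 20 reads per library, was not tested with filterByExpr or without bear 1316, while COL6A6, at 17 to 330 reads, stayed called.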
